A study of Homo sapiens with 5 samples.

Results

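G4 regions that were mapped to sequences outside the assembled chromosomes are described here for C4-2 cells, an established human prostate cancer line that grows without androgen. An antibody against folded G-quadruplexes (G4s), named BG4, was used for chromatin immunoprecipitation and sequencing in 4 biological replicates of 1 condition, with 1% formaldehyde as the cross-linker and fragments of 100 to 500 bp. The line is kept in culture, and all 4 libraries share it, so they show how well the assay repeats in 1 line and nothing about other prostate cells. The input library was not analysed here. Each replicate has 1 peak list, in which a peak carries its position, its summit, the fold enrichment of the reads at the summit over the local background as MACS2 gives it, and its p-value and q-value, both written as −log10. Read counts are not part of the lists, and depth is unknown.

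The 4 lists were pooled, peaks sharing at least 1 bp were joined into merged regions, and regions whose sequence name is not chromosome 1 to 22, X, Y or M were kept. The rule left 478 of 10852 merged regions, on 116 contigs, against 10374 regions on chromosomes. The names begin with GL on 63 contigs (208 regions) and with JH, KB or KE on the other 53 (270 regions). All positions are on GRCh37 (hg19), the build in the submitters' processing notes, although the methods text names hg38. Contig names are given as in the lists, and a region is named by its contig and its first base. Where a replicate had several peaks in a region, the highest of their folds is given.

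A G4 forms where 4 runs of guanine in one strand pair into stacked planar layers, which needs guanine-rich sequence and is known above all from promoters, telomeres and ribosomal DNA. A reference genome also holds pieces beside its chromosomes. In GRCh37 the GL names up to GL000249 are scaffolds that were never placed, or not placed exactly, and many of them hold repeats and segmental duplications. GL000250.1 to GL000256.1 are other versions of the major histocompatibility complex (MHC) on chromosome 6, and GL000258.1 is another version of a piece of chromosome 17. Later GL names and those with JH, KB and KE are fix patches and alternate loci, which repeat the sequence of a chromosome with changes. A read from a sequence that stands more than once in the reference can be placed at any of its copies, so a contig region and a chromosome region can rest on the same reads, and peaks on such contigs cannot be given to 1 place in the genome.

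Sequence was available for 25 of the 116 contigs, whose record of the same accession and version is part of the hg38 reference, so that positions on it are the same in both builds. They carried 83 regions (17.4%). Windows were chosen to show the kinds of sequence under the strongest and the widest regions, one promoter with many G4 motifs, and one repeat contig. All are written on the plus strand of the contig. A G4 motif was searched on both strands as 4 runs of at least 3 G with loops of 1 to 7 bases, and capitals mark such motifs, as G runs or, on the minus strand, as C runs. A window without capitals holds no such motif.
GL000220.1:7438-7638, the strongest GL region with a sequence: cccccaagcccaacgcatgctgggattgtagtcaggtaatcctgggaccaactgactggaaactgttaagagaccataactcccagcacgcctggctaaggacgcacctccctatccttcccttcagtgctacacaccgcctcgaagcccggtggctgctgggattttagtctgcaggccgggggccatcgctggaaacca
GL000195.1:30664-30864, a stretch with several copies in hg38: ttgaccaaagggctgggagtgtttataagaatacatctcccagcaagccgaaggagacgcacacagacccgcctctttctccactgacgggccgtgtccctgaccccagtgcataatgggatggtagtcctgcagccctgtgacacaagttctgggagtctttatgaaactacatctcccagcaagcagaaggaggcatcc
GL383571.1:162474-162674, start of DSEL: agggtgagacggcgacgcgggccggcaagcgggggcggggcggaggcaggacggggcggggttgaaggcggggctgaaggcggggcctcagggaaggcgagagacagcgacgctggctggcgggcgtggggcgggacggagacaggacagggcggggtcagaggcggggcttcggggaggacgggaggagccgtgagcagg
GL383566.1:72080-72238, start of SEPTIN9: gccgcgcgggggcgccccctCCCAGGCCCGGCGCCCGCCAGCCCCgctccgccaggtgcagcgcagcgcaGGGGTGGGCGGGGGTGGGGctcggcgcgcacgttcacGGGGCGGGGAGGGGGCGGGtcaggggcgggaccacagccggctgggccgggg
GL000220.1:106296-106496, first ribosomal unit: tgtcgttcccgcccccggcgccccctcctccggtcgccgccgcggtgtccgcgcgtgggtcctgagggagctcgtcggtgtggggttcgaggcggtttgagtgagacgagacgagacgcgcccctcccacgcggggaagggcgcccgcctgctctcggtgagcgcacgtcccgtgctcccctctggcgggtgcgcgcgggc
GL000220.1:122625-122825, spacer between the units: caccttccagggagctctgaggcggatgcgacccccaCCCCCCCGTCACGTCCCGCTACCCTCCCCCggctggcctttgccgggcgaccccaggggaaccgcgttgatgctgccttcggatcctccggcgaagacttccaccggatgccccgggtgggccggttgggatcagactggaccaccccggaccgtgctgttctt
GL000226.1:14298-14498, tandem repeat: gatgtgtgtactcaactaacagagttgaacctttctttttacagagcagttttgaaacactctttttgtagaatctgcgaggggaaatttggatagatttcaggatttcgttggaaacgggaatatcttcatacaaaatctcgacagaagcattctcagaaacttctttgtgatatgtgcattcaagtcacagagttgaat

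The windows differ widely in base composition. The SEPTIN9 window holds 85.5% G and C with 3 motifs, and the window of the first ribosomal unit 76.1% with none. The strongest GL window, on GL000220.1, holds 58.2% G and C and no motif. The window of GL000226.1 holds 36.8% and no motif.

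Regions were spread unevenly over the contigs. A single region was found on 44 contigs, 2 regions on 18, 3 to 5 on 32 and 6 or more on 22, with a median of 2. JH636052.4 held 52, JH159134.2 38, JH806602.1 25 and JH159150.3 19, together 134 regions (28.0%). JH720444.2 (10) and JH806590.2 (9) followed among the names with other prefixes. Among GL names, GL383535.1 held 13, GL000220.1 12, GL000224.1 and GL000226.1 9 each, and the MHC haplotypes GL000253.1 and GL000255.1 8 each. Counts were not scaled by contig length, which was known for the 25 records only. On these, GL000226.1 had 59.97 regions per 100 kb and GL000220.1 7.42.

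**Figure D1:**
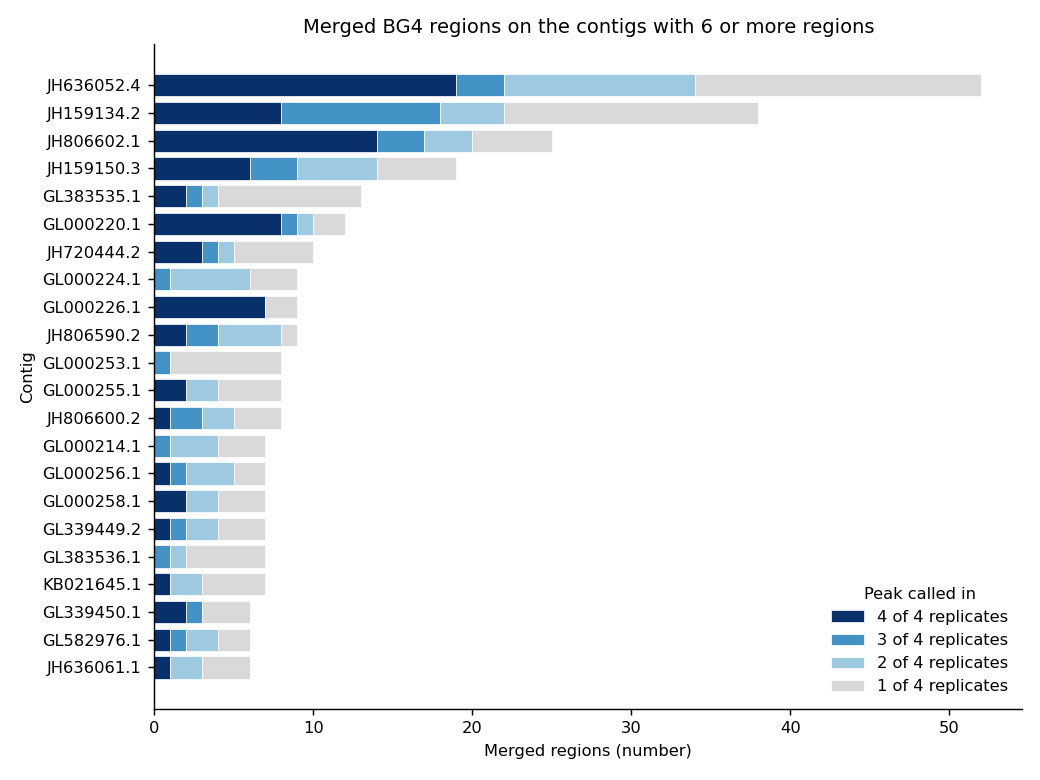
Number of merged BG4 regions (x axis) on each of the 22 contigs with 6 or more regions (y axis), with bars divided by the number of replicates that had a peak. JH636052.4 leads with 52 regions, 19 of them in all 4 replicates, whereas the 9 regions of GL000224.1 include none in all 4.

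Replicate support of the contig regions was close to that of the chromosomes. A peak in at least 2 replicates (recurrent) was found for 291 of 478 contig regions (60.9%, exact 95% binomial interval 56.3 to 65.3, counting error only), where the background over all merged regions was 63% and over chromosome regions 63.1%. A peak in all 4 replicates was found for 123 (25.7%, 21.9 to 29.9), against 26.1% of all merged regions. Of the others, 187 were seen in 1 replicate, 90 in 2 and 78 in 3. Replicate 1 alone had 83 of the 187 single regions, replicate 2 had 30, replicate 3 had 42 and replicate 4 had 32. At least 1 recurrent region lay on 97 contigs, and at least 1 region in all 4 replicates on 51, of which 29 have GL names. Peaks of all 4 replicates were found on 64 contigs and of a single replicate on 18.

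The support varied among kinds of contig, and no test was made, since regions are not replicates. Of the 71 regions on 21 GL scaffolds, 53 (74.6%, 62.9 to 84.2) were recurrent and 26 (36.6%) were in all 4 replicates. On the 7 MHC haplotypes, which are versions of 1 locus and so not independent, 16 of 36 regions (44.4%, 27.9 to 61.9) were recurrent and 5 were in all 4. GL000253.1 had 1 recurrent region of 8. Of the 94 regions on later GL names, 53 (56.4%) were recurrent, of the 235 on JH names 147 (62.6%), of the 21 on KB names 13 and of the 14 on KE names 5. Taken by prefix, the share in all 4 replicates was 23.6% for GL and 27.4% for the other names (24.5% without JH806602.1), with intervals that overlap.

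Within each replicate the contigs gave a similar share of the peaks. Contig peaks numbered 349 of 8036 in replicate 1, 260 of 6192 in replicate 2, 280 of 6805 in replicate 3 and 235 of 4427 in replicate 4, which is 4.34%, 4.199%, 4.11% and 5.31% (4.49% ± 0.553, SD, n = 4). Replicate 4 had the shortest list and the highest share.

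Fold enrichment was lower on contigs than on chromosomes in every replicate. Its median over contig peaks was 6.69, 6.51, 6.74 and 5.94 in replicates 1 to 4, against 7.53, 7.37, 7.44 and 6.92 over chromosome peaks. The 2 sets of medians do not overlap. The difference was −0.845 ± 0.113 (SD, n = 4; exact two-sided sign-flip permutation test, p = 0.13, the smallest that 4 replicates allow). GL peaks lay below those of the other prefixes, with a difference of −0.734 ± 0.368 (lower in 4 of 4 replicates, the same exact test, p = 0.13). The median −log10 q did not follow, with a contig minus chromosome difference of 0.109 ± 0.506 (higher in 2 of 4, exact p = 0.75). Nor did the median width, with −5.75 ± 11.2 bp (lower in 3 of 4, exact p = 0.5). The order of GL and other names depended on the unit. With each contig counted once, by the median highest fold of its merged regions, the median was 7.17 for GL contigs and 6.85 for the others.

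**Figure D2:**
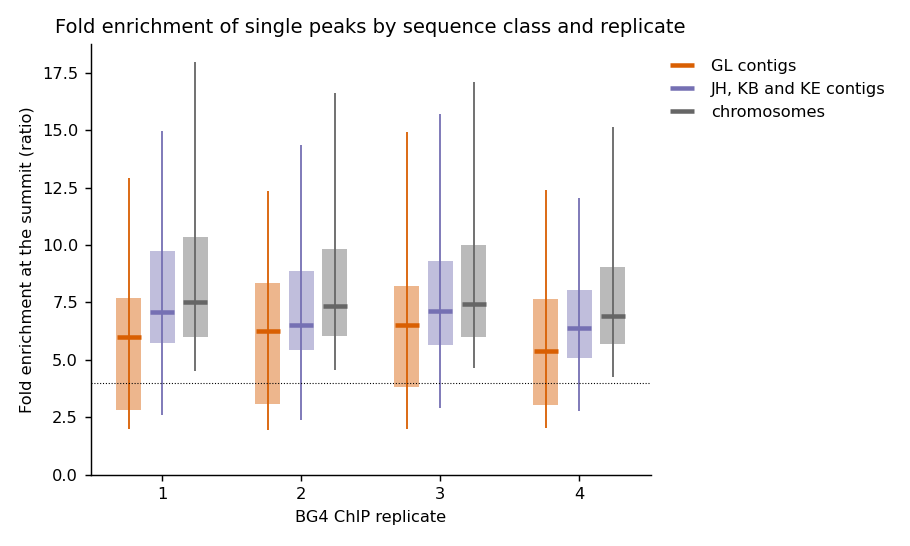
Fold enrichment of single peaks (y axis, ratio) in each replicate (x axis) for GL contigs, contigs with other prefixes and chromosomes. Thick marks are medians, boxes run from the 25th to the 75th percentile, thin lines from the 5th to the 95th, and the dotted line is at a fold of 4. In every replicate the GL median is lowest and the chromosome median highest, and the lower part of the GL boxes falls under 4.

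The lower median came with a group of peaks of low fold but high significance. A limit of 4 was set after the values were seen. The share of contig peaks under it was 19.2%, 18.8%, 16.1% and 21.3% in replicates 1 to 4, against 1.82%, 1.90%, 1.78% and 2.48% of chromosome peaks (difference 16.9 ± 1.88 percentage points, higher in 4 of 4, exact sign-flip p = 0.13). These contig peaks had a median −log10 p of 13.5, 18.3, 16.3 and 16.2, above the 10.7, 10.97, 11.4 and 9.97 of the other contig peaks. Over merged regions, 72 contig regions (15.1%) stayed under 4 in every replicate, 28 of them in all 4 replicates, against 227 chromosome regions (2.19%). The median of the highest −log10 p per region was 16.03 for the former and 5.15 for the latter. With peaks of fold 4 or more only, which was chosen after seeing the data, the contig minus chromosome difference in median fold was −0.388 ± 0.160 (lower in 4 of 4, exact sign-flip p = 0.13), and the GL minus other difference was −0.0903 ± 0.543 (lower in 2 of 4, exact p = 0.875).

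The low-fold regions lay on 16 contigs. JH636052.4 held 20, GL000220.1 and GL000226.1 9 each, GL000224.1 7, GL000214.1 6 and GL000225.1 4, and the other 10 contigs 1 to 3 each. By kind, 44 of the 71 scaffold regions (62.0%) were of low fold, 21 of 235 on JH names, 4 of 94 on later GL names, 3 of 14 on KE names, and none of the 43 on the GL haplotypes or the 21 on KB names. On 8 contigs every region was of low fold.

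**Figure D3:**
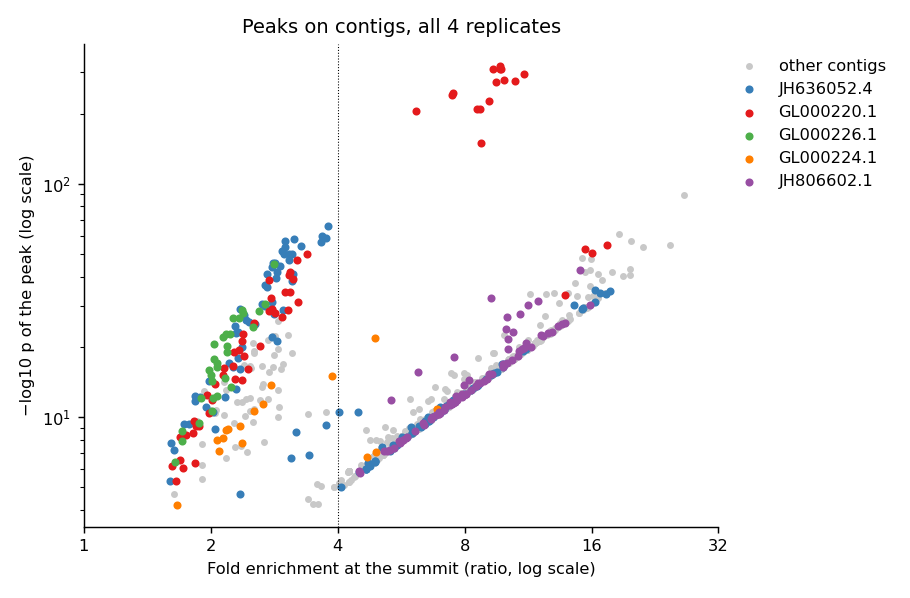
Each point is a peak on a contig in 1 replicate, by fold enrichment (x axis, log scale) and −log10 p (y axis, log scale), with 5 contigs coloured and the dotted line at a fold of 4. Most peaks follow 1 rising line above a fold of 4, peaks of GL000226.1 and part of those of GL000220.1 and JH636052.4 rise on a second line at folds under 4, and the peaks of the ribosomal units on GL000220.1 lie apart at the top.

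JH636052.4 showed both kinds along 1 contig. Its first 100 kb held 19 regions between bases 1 and 80137, 12 of them in all 4 replicates, with a highest fold of 1.95 to 3.79 and a median −log10 p of 27.6. The other 33 regions, from base 149825 to base 7179577, had a median highest fold of 6.74 and a median −log10 p of 10.4, and 7 of them were in all 4 replicates. The region at 4414981–4415788 reached 17.3, 16.3, 17.7 and 15.3 in replicates 1 to 4, and that at 787304–788609 reached 14.5, 16.8, 16.3 and 9.27. Replicate 4 was lowest in both.

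GL000226.1 is a contig of 15008 bp with 39.0% G and C, and its sequence repeats itself. At a shift of 342 bp, 68.5% of its bases equal the base so far ahead, against a median of 26.0% over all shifts tried, the highest percentage of the 25 records. GL000224.1 had 43.8% at 48 bp against a median of 25.8%. GL383571.1 had 48.1% at 2 bp, but its median over all shifts was 45.3%, so no repeat is read from it. Unresolved bases (N) were not masked and count as equal to each other. All 9 regions of GL000226.1 were of low fold, 7 of them in all 4 replicates, and none held a G4 motif. The strongest, at 14216, reached 2.83, 2.39, 2.37 and 2.69 in replicates 1 to 4. The region at 5799, the lowest by highest fold of those in all 4 replicates, reached 1.71, 1.64, 1.71 and 2.02. These values spread little between replicates. Both regions were picked by their folds, so their order within the replicates is largely set by the choice. GL000224.1 had no region in all 4 replicates, with 7 of its 9 regions of low fold.

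GL000220.1 carries ribosomal DNA, the tandem genes of the RNA of the ribosome. The precursor gene RNA45SN1 of hg38 (chr21:8433222-8446572, 13351 bp) aligned to it at 2 places, at 105424–118780 over its whole length with 99.96% identity, and at 149396–161802, where the contig ends, over 92.9% with 99.99% identity. The 18S gene lay at 109078–110946 and 153050–154918, and the 28S gene at 113348–118417 and, cut by the contig's end, 157320–161802. The widest regions of all contigs covered these units.

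The region at 104024–120506 (16483 bp) contained the whole first unit and had folds of 6.12, 9.78, 9.94 and 11.1 in replicates 1 to 4. That at 148241–161783 (13543 bp) covered the cut second unit, with 7.48, 9.71, 9.49 and 10.5. Replicate 1 was lowest and replicate 4 highest in both. Replicates 1 and 2 each had a single peak across the first unit, 16483 and 16386 bp wide, where replicates 3 and 4 had 3 peaks each. Across the second, replicates 1 and 2 again had 1 peak each, replicate 3 had 2 and replicate 4 had 3. Their −log10 p, up to 320, was the highest on any contig, although their folds were in the range of many narrower regions. They held 43 and 36 G4 motifs at 71.1% and 72.7% G and C. Regions of the 2 units are near-identical in sequence and are not separate observations.

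Between the units lay 9 low-fold regions of the spacer. The widest, at 120744–127267 (6524 bp), joined 7, 2, 5 and 5 peaks of replicates 1 to 4, none wider than 4975 bp. The highest folds of these peaks were 3.19, 3.13, 3.39 and 2.96, and the region held 8 motifs at 54.2% G and C. It was followed by regions at 128408, 132740 and 137177, all in all 4 replicates, with a highest fold of 3.09, 3.05 and 3.22. The others had a highest fold down to 1.84, and that at 141860 (1329 bp, highest fold 2.40) was also in all 4 replicates. The spacer regions were thus lower than both units in every replicate in which they had a peak. All 11 of these regions, units and spacer, had 2 or 3 near-identical copies on hg38 chromosomes, the best on chromosome 21, and which copy the reads came from was not tested.

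The strongest regions lay on both kinds of name. That at GL000205.1:87104-87925 (822 bp) was the highest of all contig regions, with folds of 26.5, 19.8, 18.5 and 13.05 in replicates 1 to 4. Its neighbour GL000205.1:84721-86925 (2205 bp) had 11.5, 12.5, 15.2 and 14.6. Replicate 1 was thus highest in the first and lowest in the second.

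The region at GL000220.1:7048-8374, outside the ribosomal units, had 15.4, 17.4, 16.03 and 13.8. It is 58.0% G and C with 1 motif, which is not in the window around its summit. The region at GL000195.1:30503-33293 (2791 bp) had 15.9, 14.1, 15.9 and 13.4, 54.9% G and C and no motif, and 5 near-identical copies in hg38. Both varied by a few units between replicates, with replicate 4 lowest.

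Other strong GL regions lay on patches and haplotypes. GL383571.1:162417-162859 had 15.7, 16.3, 15.3 and 12.7. Its sequence matched hg38 chr18:67516690-67517132 at the start of DSEL, a relative of the dermatan sulfate epimerase, and its antisense RNA DSEL-AS1. It holds 73.6% G and C but no motif with loops up to 7 bases, and 3 with loops up to 12. GL383554.1:288644-289146 had 12.1, 10.4, 16.3 and 10.7, with 5 near-identical copies in hg38, the best on chromosome 15.

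For the others, sequence was not analysed here. GL383537.1:653-1069 had 13.4, 9.89, 12.01 and 10.1, and GL000243.1:25490-26118 had 15.4, 12.4, 8.11 and 8.08. GL000258.1:9430-10108 varied least, with 10.6, 10.6, 10.4 and 9.79, and GL339450.1:285575-287003 had 6.08, 12.2, 8.24 and 12.9. These spreads overlap, and the order of the last 3 by mean is not separated from the replicate error.

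Among contigs with other prefixes, JH159132.1:69125-69663 was highest with 24.6, 19.7, 17.3 and 16.1. JH159134.2:764482-765130 had 21.2, 15.7, 16.9 and 13.6. In both, replicate 1 was highest and replicate 4 lowest. JH159132.1:5479-6125, with 14.5, 14.1, 19.7 and 15.4, was highest in replicate 3. The means of the other 7 by the same rule, on JH159134.2, JH636052.4, JH636059.1, JH159150.3 and JH806590.2, ran from 13.4 to 16.6. Over these 20 regions, the 10 strongest GL and the 10 strongest other ones, replicate 4 was lowest in 13 and highest in 1.

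**Figure D4:**
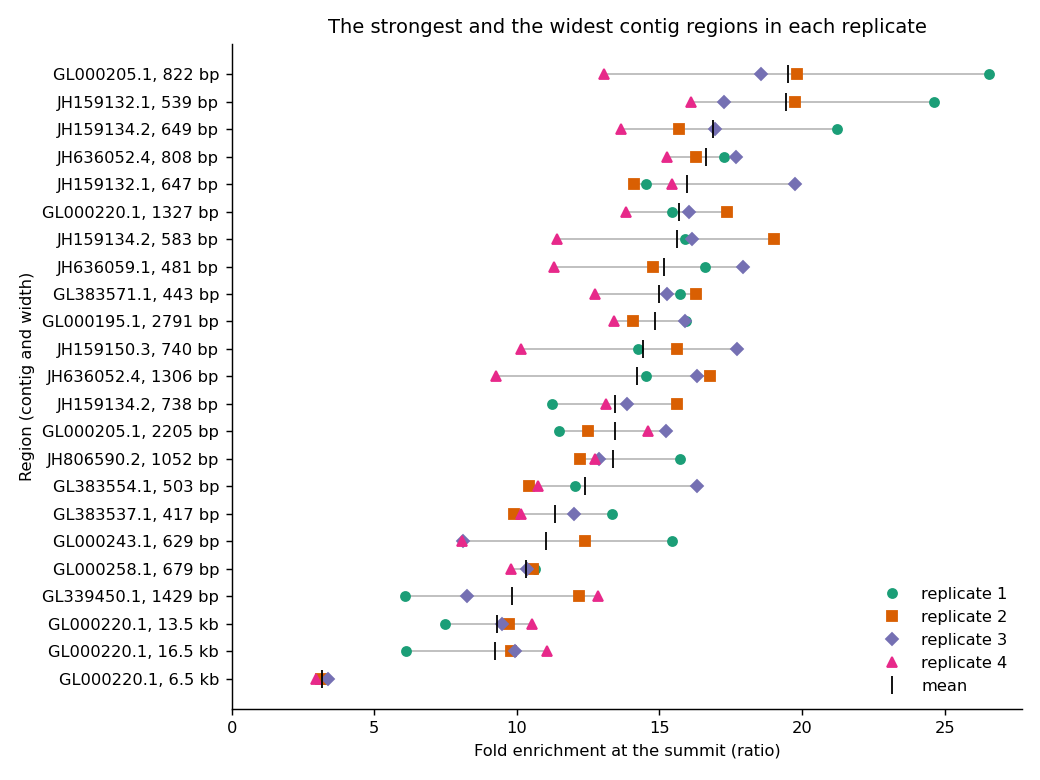
Fold enrichment at the summit (x axis, ratio) in each of the 4 replicates (symbols) and their mean (bar) for regions named by contig and width (y axis). Shown are the 10 GL and the 10 other contig regions of highest mean fold in all 4 replicates, and the 3 widest. The replicates spread from 13.05 to 26.5 in the top region, neighbours in the order overlap, and the 3 widest regions are at the bottom.

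Over all 123 contig regions in 4 replicates, the median coefficient of variation of the fold was 18.03%, against 21.8% for such chromosome regions, and replicate 4 was lowest in 48. Across the 291 recurrent contig regions, with 0 where a replicate had no peak, Pearson's r between replicates was 0.478 to 0.620 (mean 0.552), and 0.637 on average over recurrent chromosome regions. The pair 2 and 4 gave the lowest value and the pair 1 and 2 the highest. Over the 123 regions in all 4 the mean was 0.833. These are descriptions across regions, some of which are copies of each other.

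Support went with width and fold on contigs. The median width was 298 bp for regions of 1 replicate, 413.5 for 2, 449 for 3 and 620 for 4, and the median highest fold was 5.60, 6.79, 7.998 and 10.5. A region of more replicates has more chances of a high maximum and merges more peaks, so these medians are descriptions only. On GL scaffolds this order was not kept, with a median highest fold of 2.58 for 1 replicate, 2.83 for 2, 6.68 for 3 and 3.15 for all 4. At least 1000 bp were reached by 19 contig regions (3.97%) and by 2.497% of chromosome regions.

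JH806602.1 carried a regular ladder. Its 25 regions lay within 45.264 kb, from base 4534 to base 49797, and covered 14.281 kb of it, with 20 recurrent and 14 in all 4 replicates. Peaks were found in 22, 18, 21 and 15 of them in replicates 1 to 4, with a median fold of 8.999, 8.86, 7.61 and 7.56. The commonest spacing between regions, taken by their median summits and not by their centres, was 2950 bp. Of the 13 such steps between neighbouring regions in all 4 replicates, 8 fell in a set window of 2800 to 3200 bp. These 8 ran from 2915 to 3059 bp with a median of 2967.75 bp, so their narrow range is partly set by the window. The steps outside it are not in these values.

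A block of chromosome X had the same pattern. At 1 offset, 12 of the 25 regions lay within 50 bp, centre to centre, of a chromosome region. The best place on another chromosome, or far from this offset on chromosome X, gave 4. Shifts by a few steps of the ladder inside the block were not counted as other places, so they were not compared. The block chrX:114959712-115005104 held 21 regions, 15 in all 4 replicates, with a commonest spacing of 2995 bp. In the same window of 2800 to 3200 bp lay 9 of 14 steps, which ran from 2903.5 to 3037.5 bp (median 2978.5). Peaks were found in 19, 16, 18 and 16 of them, with a median fold of 10.8, 8.60, 9.99 and 7.53. Of the 12 matched pairs, 10 had the same number of replicates, and the median highest fold was 11.5 on the contig and 11.1 on the chromosome. The highest fold ran from 4.52 to 15.9 on the contig and from 4.82 to 15.7 in the block, so the ranges overlap. No sequence was read for either, so the length of a repeat unit was not measured from sequence.

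**Figure D5:**
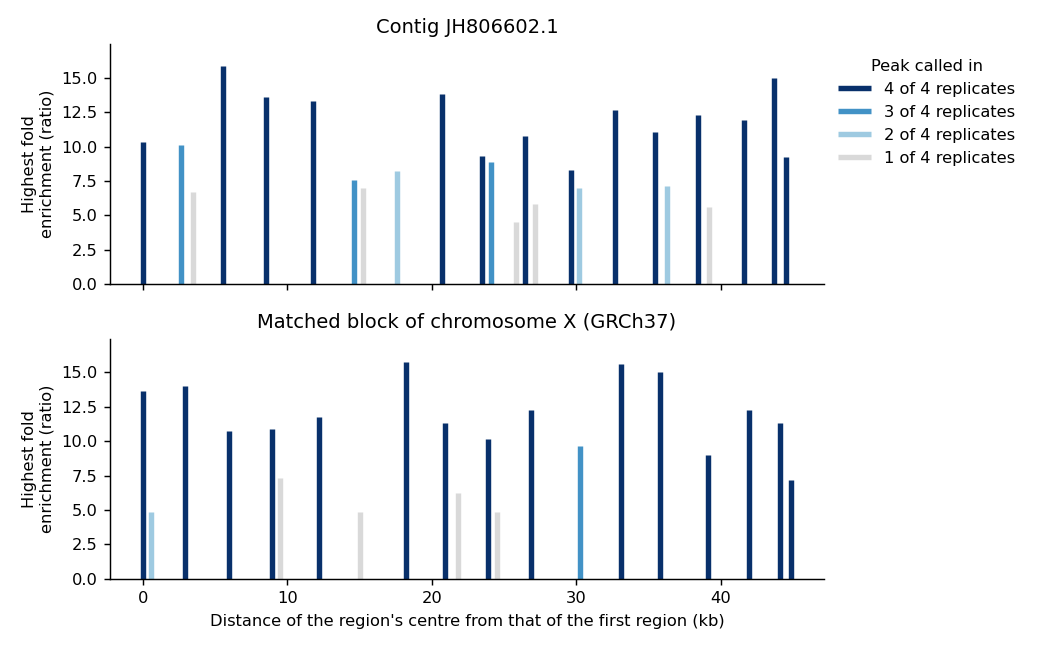
Highest fold enrichment of each merged region (y axis, ratio) against the distance of its centre from that of the first region in kb (x axis), on JH806602.1 (top) and in the matched block of chromosome X (bottom), coloured by replicate support. Many regions in all 4 replicates follow the one before by about 3 kb in both, with some longer and shorter steps. Most regions of 1 replicate stand beside them at lower folds.

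Other contigs were compared with chromosomes in the same way, and offsets near the best one on the same chromosome again did not count as another place. Of 54 contigs with at least 3 regions, 35 had at least 3 regions matched at 1 offset, but for 29 of these some other place also gave 3 or more, so the count alone does not mark a copy. A lead of at least 2 matches over the best other place, a limit set after seeing the data, was found for 3 contigs. These were JH806602.1, JH159134.2 and JH159150.3.

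JH159134.2 had 9 of 38 regions matched to chromosome 7, against 5 at the best other place. They lay between contig bases 1051274 and 1703691, a stretch with 11 contig regions, and chr7:72936335-73588738, with 15 regions. The pairs had equal support in 8 of 9, a median highest fold of 9.02 on the contig and 11.7 on the chromosome, and the contig was higher in 2 of 9. JH159150.3 had 5 of 19 regions matched to chrX:153707023-154299761, against 3 elsewhere, with equal support in 2 of 5 and a median fold of 7.32 against 9.79. The lead of JH159150.3 fell to 1 when summits or a tolerance of 20 bp were used, and without replicate 2 or replicate 4. The lead of the other 2 contigs was at least 2 in every setting tried. Only 1 offset per contig was used, so regions shifted by a length difference count as unmatched. On JH159150.3 the regions at 904436, 1158299 and 1362024 lay 37172.5, 37155 and 37231 bp from the nearest chromosome region, while other unmatched ones lay at other distances. Whether unmatched regions have a counterpart at another offset was not tested.

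On the 25 contigs with a record, regions were richer in G and C than their surroundings. Their median was 58.3%, against 43.4% in windows of the same width 2000 bp away on each side, and the region was richer in 69 of the 75 with such a window. A G4 motif was in 22 of 83 regions (26.5%) and in 14 of 127 flanking windows (11.02%). In windows of 500 bp the shares were 20 of 83 (24.1%) and 1208 of 13718 tiles (8.81%). With loops of up to 12 bases, chosen after seeing the data, 51.8% of the regions held a motif, so whether most lack one depends on the loop length. Of the 48 regions with a highest fold of 4 or more, 14 (29.2%) held one, and 45 of 47 were richer in G and C than their flanks. Of the 35 of low fold, which lie on 5 contigs, 8 held one and 24 of 28 were richer. Of the 13 regions of fold 4 or more in all 4 replicates, which include the 2 wide ribosomal regions, 6 held one, and of the 12 in 1 replicate, 2. Their flanking windows of the same width differed too, with a motif in 6 of 23 (26.1%) for the former and 2 of 23 (8.70%) for the latter.

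Most of these sequences stand on hg38 chromosomes too. A copy that covered at least 90% of the region with at least 99% identity was found for 51 of 83 regions, 39 of them among the 48 of fold 4 or more. At the best match of 30 of the 48, or within 500 bp of it, GENCODE v44 has a gene start, against 32 of all 83 regions and 2 of the 35 of low fold. The starts include those of non-coding genes and pseudogenes, and their share in flanking windows was not measured. The genes named next are protein-coding. The region of SEPTIN9, a septin of the cytoskeleton, at GL383566.1:71943-72451 had the most G and C (78.2%) and 4 motifs, with folds of 4.86, 9.76, 7.20 and 7.61. That of INTS3, a subunit of the Integrator complex, at GL383518.1:44385-44815 had 13.5, 8.85 and 15.3 in replicates 1 to 3 and no peak in replicate 4, without a motif. HCN3, a pacemaker channel, at GL383519.1:82177-82611 had 5.99, 6.24, 8.01 and 9.27 with 2 motifs. MARVELD2, a tight junction protein, at GL339449.2:198343-198890 had 7.49, 6.24 and 10.5 in replicates 1 to 3 with 2 motifs.

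Some regions had a best match in hg38 that overlapped the best match of a region on another contig, with 6 such pairs. Of these, 2 set GL000214.1:130986 against GL000224.1:5614 and GL000224.1:18601, without a gene start, and are multicopy sequence. By its best match, GL949746.1:165196-165712 lay inside TSEN34, a subunit of the tRNA splicing endonuclease, and within 500 bp of its start. Its folds were 6.28, 8.14, 11.3 and 7.64. The counterpart GL949752.1:165430-165912, also inside TSEN34 but with no gene start within 500 bp, had 7.69, 8.37 and 5.09 in replicates 1, 2 and 4. It had no peak in replicate 3. SMDT1, a part of the mitochondrial calcium uniporter, was under GL383582.2:1792-2197, with 7.32 and 5.09 in replicates 2 and 4, and under KB663609.1:1776-2194, with 4.71, 5.63 and 5.94 in replicates 1, 3 and 4. The pair at MBOAT7 and TSEN34, GL949746.1:164321 and GL949752.1:164472, had 3 replicates each and the same highest fold of 7.32. The replicates were not the same, since only GL949752.1:164472 had a peak in replicate 3. The number of replicates was thus equal in the last of these pairs and unequal in the first 2. Each of these 3 pairs counts 1 stretch of sequence 2 times, and 2 of them lie at TSEN34. The remaining pair of the 6 is not described here.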

How the data were processed

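BG4 ChIP-seq peak lists of 4 biological replicates of C4-2 cells were used, and the input library was not analysed here. Per the labels, the submitters' processing notes name hg19, bcl2fastq 1.8.4, Bowtie2 2.2.5, SAMtools 1.11 and MACS2 2.1.1. The caller's options, the handling of duplicates and multiply placed reads, and the use of the input as a control are not given in the sources used here. The deposited fold enrichment is the authors' ratio of signal over local background at the summit, and the deposited p-values and q-values are written as −log10. The deposited score was not used. There are no counts, so depth is unknown.

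Peaks were merged at an overlap of at least 1 bp, and regions outside chromosomes 1 to 22, X, Y and M were kept. Contigs named in the text are the 6 GL and 6 other contigs with most regions, regions the 10 GL and 10 other ones of highest mean fold in all 4 replicates and the 3 widest. Contigs and regions outside this rule, such as those of low fold, with gene starts or in repeats, were named after their values were seen. The members and lists were chosen with earlier results of these data known. Contig and chromosome peaks were compared within each replicate by an exact sign-flip permutation test over 4 replicates. Shares have exact (Clopper-Pearson) 95% binomial intervals for counting error. Contig centres were matched to chromosome regions at a common offset within 50 bp, and the best other place left out offsets near the best one on the same chromosome. Sequence came from hg38 records of the same accession and version, copies were found with minimap2 2.31, and gene names come from GENCODE v44 on hg38. The sequence and values of 1 region are not reported here. Merging, matching and motif search were tested on simulated data with well-separated peaks of 1 width, and all 18 known answers were recovered. Chained peaks and length differences between contig and chromosome were not simulated. Each replicate was left out in turn. The other alternatives were summits within 200 bp, an overlap of 50%, 3000 peaks of highest −log10 p per list, a −log10 q limit of 4, −log10 p in place of fold, and other tolerances. The scripts ran under Python 3.11.15 with scipy 1.17.1, pandas 2.3.3, matplotlib 3.10.9 and numpy 2.4.6.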

Additional observations from a re-analysis of the deposited data

How the results depend on the processing

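No paired analysis was possible because only 1 group has peak lists, so replicate numbers pair no samples of different groups. The comparisons within a replicate are between parts of 1 list. Recurrence, GL share and the number of contigs with a region moved little when overlap, summits or the −log10 q limit changed. The 3000 strongest peaks of each replicate left 226 contig regions, with a median highest fold of 9.31 and a median width of 454.5 bp, and turned the contig minus chromosome width difference to 5.75 bp. A −log10 q of at least 4 gave a median highest fold of 7.07. With −log10 p in place of fold, the contig minus chromosome difference turned to 0.112 and the GL minus other difference to 0.0501, so the lower contig values hold for fold enrichment and not for significance. The cause was not tested.

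Leaving out each replicate changed shares partly by construction, since a region then needs 1 replicate fewer to be in all. Shares in all replicates were 30.9% to 37.4% of contig regions, 29.5% to 35.8% for GL and 32% to 38.6% for other names, and recurrent shares 55.9% to 57.8%. The mean correlation was 0.546 to 0.633, 0.467 by Spearman's rho and 0.833 over regions in all 4 replicates. Contigs with at least 3 matched regions were 21 at a tolerance of 20 bp, 54 at 200 bp, 13 with recurrent regions, 24 to 38 with a replicate left out, and 3 where a lead of at least 2 was asked for, so this count depends on the setting. Without JH636052.4, GL000220.1 and GL000226.1, chosen after seeing the data, 7.94% of contig peaks had a fold under 4. G4 motifs with loops of up to 12 bases were in 51.8% of the regions with a sequence. The lists of 4 replicates, without counts, do not show how far depth sets the number of peaks.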
